A study of Mus musculus with 47 samples.

Results

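The myelin response of microglia with 1 disrupted Apoe allele (Het) was measured in 9 of the 47 libraries of the series, chosen by genotype and treatment label. Microglia, the resident macrophages of the brain, were cultured from the forebrain of C57BL/6 mice, and the Het libraries carry the Jackson Laboratory stock number 002052, as the KO libraries do. The 5 untreated Het libraries came from cultures left without myelin, and the 4 myelin Het libraries from cultures given myelin for 3 h and collected 21 h later, at 24 h. The other 38 libraries, from wild-type (WT), Apoe knockout (KO), human APOE3 (E3) and human APOE4 (E4) microglia with and without myelin, entered the statistical fit but are described only where they set off the Het result. No label ties a replicate to an animal or culture of its own. The p-values therefore reflect only how far libraries scatter within groups, and that scatter may be technical. In the limma fit the spread of each gene was estimated over all 47 libraries, most of them not Het.

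Myelin is the cholesterol-rich membrane that wraps axons, and microglia clear its debris by phagocytosis. Cholesterol released in lysosomes is sensed by a pair of systems: it holds back the SREBP2 transcription factor, which drives sterol synthesis and uptake genes, and its oxidised derivatives activate the LXR receptors, which drive cholesterol export through the ABCA1 and ABCG1 transporters and lipoproteins such as apolipoprotein E. A cell that has taken up myelin cholesterol is known for low sterol synthesis transcripts and high export transcripts.

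Levels are given in scaled TPM, TPM (transcript abundances that sum to the same total in each library) rescaled to the total of nuclear protein-coding genes and then by a trimmed mean. Nuclear coding genes held 17.5%, 18.4%, 5.66%, 11.5% and 0.468% of TPM in untreated Het replicates 1 to 5, and 4.12%, 2.91%, 8.04% and 13.9% in myelin Het replicates 1 to 4. The 38 other libraries held 7.16% to 27.3%, so that 4 Het libraries (untreated 3 and 5, myelin 1 and 2) fell below every other library. The mean coding share was 10.7 ± 7.68% (SD, n = 5) untreated and 7.25 ± 4.96% (SD, n = 4) with myelin, and the groups overlapped (two-sided exact permutation p = 0.46, smallest possible 0.00794). Without both replicates numbered 2 the shares differed by -0.076 percentage points (exact permutation p = 1). The single non-coding gene Gm23935 took 78.9% to 99.0% of TPM in the Het libraries.

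The fit weighted each library by how closely it followed its group. Untreated replicate 1 (1.21) and myelin replicate 3 (1.90) had the highest Het weights, and untreated replicate 5 the lowest of all 47 (0.0369). The other 3 libraries of low coding share had weights of 0.131 to 0.167. The largest share of the weight in the myelin group therefore rests on 1 library. Pairs of untreated Het libraries correlated at r = 0.785 to 0.983 and myelin pairs at 0.926 to 0.973 across genes, against at least 0.965 within every other group.

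All 18 microglia and macrophage markers were above 0 in each Het library, with Cd68 between 1067 and 5823 and Trem2 between 1093 and 2572 scaled TPM. P2ry12, a marker of microglia in the brain that is low in culture, was between 1.26 and 4.48. Summed astrocyte markers held 291 to 518 scaled TPM and summed fibroblast and pericyte markers 140 to 609, against 19683 to 60951 for the summed microglia markers. Glul alone, at 230 to 422, was the largest part of the astrocyte sum. Acta2 and Tagln had the highest medians of the fibroblast and pericyte markers, 117 and 102. Apoe, on chromosome 7 from 19696109 to 19699188 in mm10, stood at 49680 ± 22299 scaled TPM (SD, n = 5) in untreated Het, 54853 ± 6703 (SD, n = 5) in untreated WT and 72.5 ± 5.95 (SD, n = 5) in untreated KO libraries. The untreated Het libraries (18330 to 81155) spanned the untreated WT range (43886 to 61872), and the KO libraries lay far below both.

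**Figure D1:**
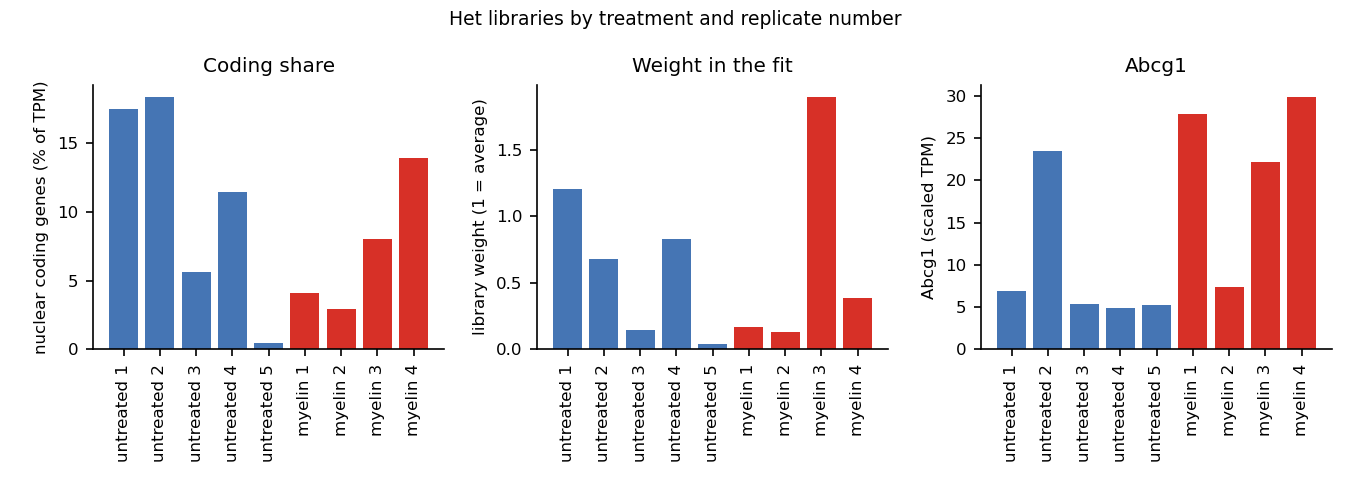
Coding share (percent of TPM), library weight in the fit (1 is average) and Abcg1 level (scaled TPM) in the 5 untreated (blue) and 4 myelin (red) Het libraries, by replicate number. Untreated replicate 5 has a coding share of 0.468%, myelin replicate 3 a weight of 1.90, and Abcg1 is high in untreated replicate 2 and low in myelin replicate 2.

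The replicates numbered 2 stood apart from their groups in the genes that separated the other 7 libraries. Leaving both out, 325 of 10948 tested genes (2.97%) were higher in every myelin than in every untreated library and 574 (5.24%) were lower. Untreated replicate 2, which had no part in choosing these genes, lay nearer the mean of the myelin libraries in 218 (67.1%) of the higher and 428 (74.6%) of the lower genes. Myelin replicate 2 lay nearer the mean of the untreated libraries in 194 (59.7%) and 397 (69.2%). Both lay on the opposite side of their label in 114 (35.1%) and 303 (52.8%), and neither did in 27 and 52. With all 9 libraries 51 genes (0.466%) were higher and 76 (0.694%) lower without overlap. Of the 126 ways to label 9 libraries, 1 separates a gene in a given direction, a share of 0.00794. For the 7 libraries it is 1 of 35, a share of 0.0286. The 51, 76 and 325 genes lie near or below these shares, and the 574 genes lie above theirs. Untreated replicate 2 had the highest coding share of the 9 Het libraries (18.4%), and myelin replicate 2 the lowest of the myelin libraries (2.91%). The labels were kept as given throughout. The cause of the positions of the replicates numbered 2, and the part of coding share in them, was not tested. Some results below are given also without both libraries, and values with no setting named are from the fit with all libraries. The fit without both is no independent support, since their values were known.

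With all 9 libraries limma called 407 of 10948 genes (3.72%) at an adjusted p under 0.05, of which 104 (0.95%) were higher and 303 (2.77%) lower with myelin. Leaving out both replicates numbered 2, it called 524 (4.79%), 89 higher (0.813%) and 435 lower (3.97%), and 258 genes were called in both fits in the same direction. The count rested on 2 libraries: it was 0 without untreated replicate 1 and 0 without myelin replicate 3, with 274 and 540 genes at an unadjusted p under 0.05. It was 1978 without myelin replicate 1 and 1765 without untreated replicate 4. All 407 genes kept their direction without untreated replicate 1, and 394 did without myelin replicate 3. With the spread estimated from the 9 Het libraries alone, limma called 0 genes weighted and 0 unweighted.

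The count was also low in fits that took the coding share into account. With log2 coding share as a covariate limma called 4 genes, and with the 4 low libraries left out it called 1 in the weighted and 9 in the unweighted fit. All 407 genes kept their direction in these 3 fits. That is little support, since the 4 low libraries had weights of only 0.0369 to 0.167 when the 407 were chosen. These 3 fits hold fewer libraries or 1 more term than the fit of all 9, and the part of coding share in the count was not tested. Scaling to the coding total alone, with no trimmed mean, shifted the median log2 fold change of all genes from -0.02 to -0.13 and gave 279 higher (2.56%) and 1288 lower genes (11.8%), 14.4% in all. Without weights the split was 154 higher and 156 lower.

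**Figure D2:**
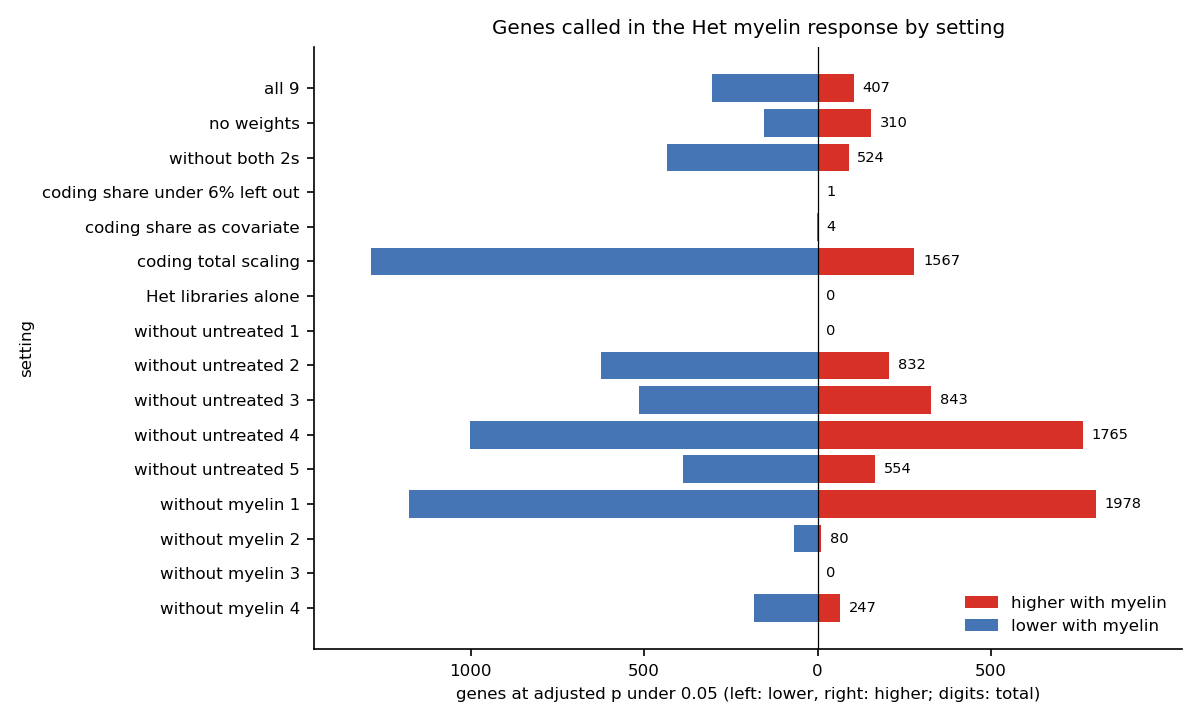
Number of genes at adjusted p under 0.05 (limma) in the Het myelin response, higher with myelin to the right and lower to the left, for all 9 libraries, for 6 other settings and with each Het library left out. The total is 407 with all 9 libraries and 0 without untreated replicate 1, without myelin replicate 3 or with the Het libraries fitted alone.

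Srebf2 and Insig1, regulators of sterol synthesis, fell with myelin. Srebf2, which encodes SREBP2, held 82.5, 61.7, 75.1, 75.7 and 43.7 scaled TPM untreated and 36.8, 44.0, 55.4 and 55.2 with myelin (log2 fold change -0.47 ± 0.10, limma adjusted p = 0.0105). Only untreated replicate 5, the library of 0.468% coding share, lay among the myelin libraries. Insig1, which holds the SREBP complex in the endoplasmic reticulum and is itself an SREBP target, held 63.9, 51.6, 43.1, 54.9 and 41.1 untreated and 30.8, 31.2, 31.2 and 43.2 with myelin. Myelin replicate 4 lay above untreated replicates 3 and 5, and the log2 fold change of -0.78 ± 0.23 (limma adjusted p = 0.0451) was -0.71 and missed the threshold without both replicates numbered 2 (adjusted p = 0.104).

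In the pathway itself 8 of 19 measured enzymes fell, among them Sc5d, Msmo1, Cyp51, Sqle, Hmgcs1, Dhcr7 and Mvd, and none rose, against 2.77% of all genes lower. The other 11 were not called. All 19 had a negative log2 fold change, with a median of -0.39 against -0.02 for all genes. Sqle, squalene epoxidase, held 62.7, 49.1, 35.7, 52.0 and 29.7 scaled TPM untreated and 31.6, 25.1, 36.6 and 38.7 with myelin (log2 fold change -0.58 ± 0.12, limma adjusted p = 0.00559). Its untreated libraries of low coding share, 3 and 5, lay among the myelin libraries. Sc5d, Msmo1 and Cyp51, enzymes of the late pathway, had log2 fold changes of -0.68, -0.64 and -0.61.

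For the 7 libraries not numbered 2 the pathway count was 8 of 19, against 3.97% of all genes lower, with a median of -0.42, where Acat2, Fdps and Fdft1 stood in place of Sc5d, Hmgcs1 and Dhcr7. With coding share as a covariate limma called 0 of 19 and 4 genes in all, all 19 were negative and the median was -0.25. In the unweighted fit of the same 7 libraries it was 3 of 19, against 10.9% of all genes lower, with a median of -0.03 and 9 positive values, and there Sc5d, Msmo1 and Cyp51 were above 0. Leaving out untreated replicate 5 as well, the unweighted median was -0.27 with 17 of 19 values negative. The mean level of the pathway was lowest in untreated replicate 5 and myelin replicate 2 (4.61 and 4.52 on the log2 scale, against 4.95 to 5.48 in the other 7), which are 2 of the 4 low libraries. The part of coding share in the size of the fall was not tested. Fatty acid synthesis genes gave 2 of 12 lower, Fads2 (a desaturase, log2 fold change -1.12) and Scd2 (-0.62), against 2.77% of all genes, and a median of -0.41. With coding total scaling 8 of 12 were lower, against 11.8% of all genes.

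RefSeq promoter windows of build GRCm38.p6 were searched on both strands for the sterol regulatory element written as TCACNCCAC, the site class that SREBP binds. In the 250 bases before the start, 1 of 22 listed sterol genes with an entry held it in at least 1 of its windows (4.55%). Counted in the same way, 331 of all 27025 genes with an entry did (1.22%). Sqle was not among the entries. The gene with the match was Hmgcs1, the HMG-CoA synthase, whose element begins 137 bases before the start. Its window, chr13:119690101-119690350 on the plus strand, is shown because Hmgcs1 fell with the pathway, with the element in capitals.
Hmgcs1: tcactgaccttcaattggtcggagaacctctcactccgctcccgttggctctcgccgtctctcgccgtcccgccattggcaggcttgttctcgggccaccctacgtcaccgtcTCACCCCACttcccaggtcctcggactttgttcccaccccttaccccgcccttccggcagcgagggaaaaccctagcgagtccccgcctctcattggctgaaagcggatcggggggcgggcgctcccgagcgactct
Hmgcs1 held 61.3, 53.2, 35.8, 58.1 and 39.1 scaled TPM untreated and 40.0, 33.9, 36.4 and 47.9 with myelin (log2 fold change -0.56 ± 0.15, limma adjusted p = 0.0339, and 0.0616 without both replicates numbered 2). The low untreated libraries 3 and 5 again lay within the myelin range. No match elsewhere says only that these letters are not in those windows.

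Among lipid export genes, Abcg1 and Apoc1 rose. Abcg1, the LXR-driven cholesterol exporter, held 6.94, 23.5, 5.30, 4.82 and 5.29 scaled TPM in untreated replicates 1 to 5 and 27.9, 7.34, 22.1 and 29.9 in myelin replicates 1 to 4. Untreated replicate 2 lay among the myelin libraries, and myelin replicate 2 lay next to the other untreated libraries. The log2 fold change was 1.32 ± 0.25 (SE, limma adjusted p = 0.00345), or 2.04 ± 0.18 (adjusted p = 2.9e-10) without both replicates numbered 2. On mean levels alone the log2 difference was 1.26 (two-sided exact permutation p = 0.0714) with 9 libraries and 2.07 with 7 (exact permutation p = 0.0286, the smallest that 4 against 3 allows). Abcg1 was called with coding share as a covariate (log2 fold change 1.46, limma adjusted p = 0.0377) and with the 4 low libraries left out, unweighted (1.36, adjusted p = 0.0438).

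Apoc1, an apolipoprotein gene beside Apoe (chromosome 7, 19689481 to 19692660), held 66.0, 149.6, 154, 55.4 and 86.8 scaled TPM untreated and 401, 147, 218 and 216 with myelin. Myelin replicate 2 was the only myelin library inside the untreated range. Its log2 fold change was 1.46 ± 0.29 (SE, limma adjusted p = 0.00559), and 1.92 ± 0.30 (adjusted p = 9.97e-05) without both replicates numbered 2. Apoc4, of the same gene cluster, had a log2 fold change of 1.31 ± 0.37 (limma adjusted p = 0.0381), with untreated replicate 5 the highest of all 9 libraries at 25.4 scaled TPM. Together the LXR and export list gave 2 of 13 higher and 2 lower (Scd2 and Tmem97), against 0.95% of all genes higher and 2.77% lower, with a median of 0.00. With coding total scaling 2 were higher and 5 lower, against 2.56% and 11.8%.

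Apoe itself held 50526, 51865, 81155, 46525 and 18330 scaled TPM untreated and 31561, 16425, 55507 and 55926 with myelin. The groups overlapped, with low values in untreated replicate 5 and myelin replicate 2. The log2 difference of means was -0.33 (two-sided exact permutation p = 0.532), and 0.09 without both replicates numbered 2 (exact permutation p = 0.83). Abca1, the other LXR-driven exporter, held 80.1, 78.5, 51.2, 57.4 and 34.9 untreated and 63.8, 34.2, 47.2 and 53.9 with myelin, and its log2 fold change of -0.53 ± 0.17 missed the threshold (limma adjusted p = 0.0593).

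Fabp3, a fatty acid binding protein gene, held 140, 166, 194, 144 and 69.0 scaled TPM untreated and 293, 160, 238 and 203 with myelin (log2 fold change 0.64 ± 0.13, limma adjusted p = 0.00715). Myelin replicate 2 alone fell inside the untreated range. The lipid droplet list gave 2 of 15 higher, Fabp3 and the triglyceride enzyme gene Dgat2 (0.87, limma adjusted p = 0.0456), against 0.95% of all genes, and none lower. Dgat2 took its highest value, 19.5 scaled TPM, in untreated replicate 5, and its log2 fold change was -0.40 without weights. Plin2, the main droplet coat protein of macrophages, was 650 to 1809 untreated and 1203 to 1813 with myelin (log2 fold change 0.08, limma adjusted p = 0.708).

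The largest rise of a coding gene that the naming rule allowed was that of Syt17, a synaptotagmin gene, with a log2 fold change of 1.86 ± 0.52 (limma adjusted p = 0.0365). It held 2.32, 3.63, 8.30, 1.97 and 51.0 scaled TPM untreated and 7.81, 26.5, 16.5 and 2.96 with myelin. Its highest value was in untreated replicate 5 and the groups overlapped.

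**Figure D3:**
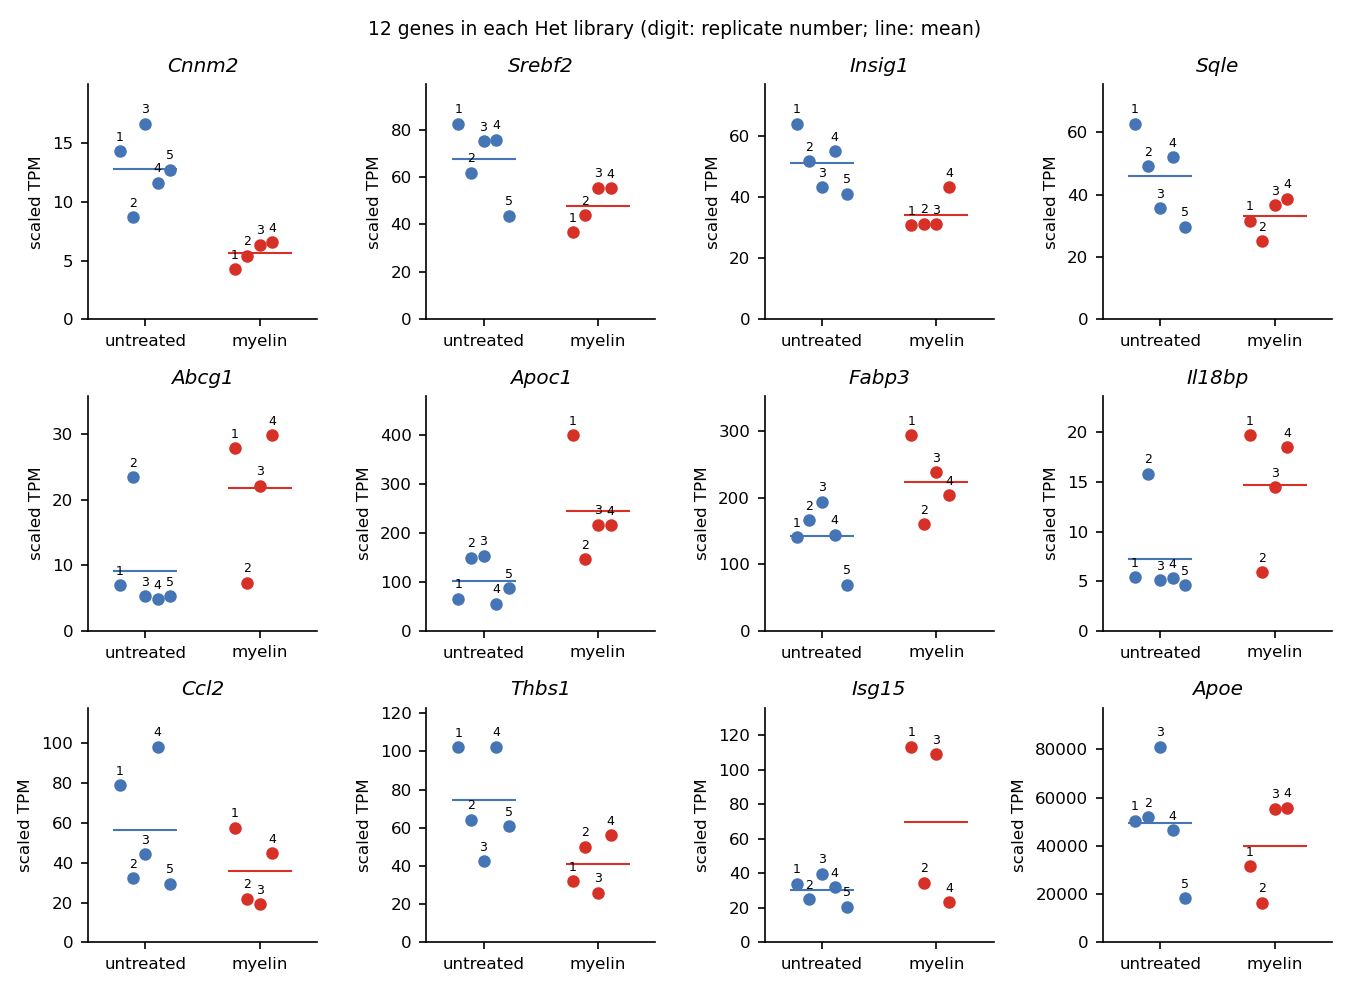
Scaled TPM of 12 genes in each Het library, untreated in blue and myelin in red, with the replicate number above each point and a line at the group mean. Cnnm2 separates the groups in all 9 libraries, Abcg1 and Il18bp do so in all but the replicates numbered 2, and Isg15 is high only in myelin replicates 1 and 3.

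Of 33 lysosomal hydrolase and membrane genes none rose and 1 fell, against 2.77% of all genes lower, and the list median was -0.17. The gene that fell was Smpd1, acid sphingomyelinase (log2 fold change -0.49 ± 0.12, limma adjusted p = 0.0136). With coding total scaling 11 of 33 were lower, against 11.8% of all genes, and the median was -0.30. No subunit of the vacuolar proton pump was called (16 measured, median 0.07). Ctsb, cathepsin B, held 11738, 14249, 6274, 10659 and 1680 scaled TPM untreated and 9151, 3008, 10778 and 15332 with myelin. Untreated replicate 5 and myelin replicate 2 were its lowest libraries, and the same held for the list's mean level (7.56 and 7.66 on the log2 scale, against 8.41 to 9.03 in the other 7).

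These genes depended on untreated replicate 5 in the fits without both replicates numbered 2. Weighted, limma called 0 of the 33 lysosomal genes and 0 of the 16 pump subunits. Unweighted, it called 12 and 11 higher, when 8.79% of all genes were called higher and 10.9% lower, and 15 of 24 disease-associated microglia genes, among them Gpnmb at 0.61. Leaving out untreated replicate 5 as well, the unweighted counts were 2, 3 and 4, against 3.06% of all genes higher and 5.03% lower. The weighted fit of all 9 libraries called 0 higher and 1 lower of these 24 genes, which include Trem2 and Lpl, with a median of 0.05. Ctsd, cathepsin D, had log2 fold changes of 0.86 and 0.44 in the unweighted fits with and without untreated replicate 5, and 0.11 with all libraries weighted.

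Of 22 cytokine and chemokine genes 4 fell and 1 rose, against 2.77% of all genes lower and 0.95% higher, with a median of -0.32. The mean level of the list was 5.57 ± 0.28 (SD, n = 5) on the log2 scale untreated and 5.46 ± 0.22 (SD, n = 4) with myelin, so it differed by less than the spread between libraries. Ccl2, which recruits monocytes (chromosome 11, 82035571 to 82037453), held 78.7, 32.1, 44.3, 98.2 and 29.5 scaled TPM untreated and 57.6, 21.9, 19.1 and 44.8 with myelin. The groups overlapped, and the log2 fold change was -1.44 ± 0.25 (SE, limma adjusted p = 0.00282). It was -1.77 ± 0.25 (adjusted p = 2.15e-05) without both replicates numbered 2 and -0.63 (adjusted p = 0.131) without weights. Ccl12, Ccl7 and Csf1, the ligand of the microglial survival receptor, fell by 1.06, 1.01 and 0.95 on the log2 scale. Among the 7 libraries not numbered 2 the list counts were 8 lower and 1 higher, against 3.97% and 0.813% of all genes.

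The gene that rose was Il18bp, whose product binds and blocks the cytokine IL-18 (chromosome 7, 102014885 to 102018690). It held 5.43, 15.8, 5.09, 5.28 and 4.60 scaled TPM untreated and 19.7, 5.89, 14.5 and 18.5 with myelin. As for Abcg1, untreated replicate 2 lay with the myelin libraries and myelin replicate 2 with the untreated ones. For Il18bp the log2 fold change was 0.97 ± 0.22 (SE, limma adjusted p = 0.011), and 1.42 ± 0.18 (adjusted p = 6.7e-06) without both.

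Il1b, an inflammatory cytokine, was 339 to 657 untreated and 270 to 486 with myelin (log2 fold change -0.76, limma adjusted p = 0.0766). Of 18 NF-kB feedback and acute phase genes, Ptgs2, the inducible prostaglandin synthase (-1.26), and Nfkbie, an NF-kB inhibitor (-0.62), fell, against 2.77% of all genes. Of 20 immediate early genes, the transcription factors Nr4a1 and Fosl2 fell, by 0.74 and 0.56 on the log2 scale. Without both replicates numbered 2, 5 of the 20 fell, against 3.97% of all genes. Nr4a1 held 172, 96.3, 137, 204 and 304 scaled TPM untreated and 72.4, 162, 90.8 and 101 with myelin, so that the replicates numbered 2 again crossed.

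Interferon-stimulated genes gave the highest median of any list, 0.83, with 8 of 25 higher and none lower, against 0.95% of all genes higher. The 8 were Ifit3, Zbp1, Isg15, Oas2, Xaf1, Oas1a, Bst2 and Ifi204. Isg15, a ubiquitin-like antiviral protein gene, held 33.9, 25.2, 39.9, 32.1 and 20.8 scaled TPM untreated and 113, 34.6, 109 and 23.2 with myelin. Myelin replicates 1 and 3 were high and 2 and 4 lay among the untreated libraries. The log2 fold change was 1.37 ± 0.36 (SE, limma adjusted p = 0.0258), and 1.22 ± 0.39 without both replicates numbered 2 (adjusted p = 0.0624). Ifit3 held 10.7, 8.79, 6.27, 3.80 and 3.10 untreated and 29.0, 7.16, 38.9 and 7.10 with myelin (log2 fold change 1.77 ± 0.46, limma adjusted p = 0.0213). The same 2 libraries carried the rise, and no gene of the list separated the groups, also without both replicates numbered 2.

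The mean level of the list was 5.13 and 5.10 on the log2 scale in myelin replicates 1 and 3, and 3.77 to 4.26 in the other 7 Het libraries. Cxcl10, an interferon-induced chemokine, was at 3.70 and 4.93 scaled TPM in these libraries, within its untreated range of 0.873 to 10.8. The WT response had a list median of -0.37, and the difference between the Het and WT responses was called higher for 13 of the 25 genes, when 0.986% of all genes were.

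The interferon-stimulated response element, written as TTTC, any 2 bases and TTTC again, and searched on both strands in the same 250 bases, was found in 10 of the 20 listed genes with a RefSeq entry, in at least 1 window of each, and in 936 of all 27025 genes with an entry (3.46%). Of the 8 genes that rose, 5 had an entry and 4 of these held the element: Bst2, Ifit3, Isg15 and Oas1a. Cxcl10, Gbp2, Ifit1, Oas3, Rsad2 and Stat2 also held the element and were not called. Isg15 (chr4:156200819-156201068, minus strand) and Ifit3 (chr19:34583279-34583528, plus strand) are shown because they rose and hold 3 and 2 matches, printed in capitals along the gene's strand and overlapping in Isg15.
Isg15: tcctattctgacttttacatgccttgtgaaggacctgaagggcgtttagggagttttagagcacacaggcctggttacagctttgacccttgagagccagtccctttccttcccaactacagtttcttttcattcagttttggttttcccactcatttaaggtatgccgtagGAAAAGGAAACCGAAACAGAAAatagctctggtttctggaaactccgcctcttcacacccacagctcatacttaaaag
Ifit3: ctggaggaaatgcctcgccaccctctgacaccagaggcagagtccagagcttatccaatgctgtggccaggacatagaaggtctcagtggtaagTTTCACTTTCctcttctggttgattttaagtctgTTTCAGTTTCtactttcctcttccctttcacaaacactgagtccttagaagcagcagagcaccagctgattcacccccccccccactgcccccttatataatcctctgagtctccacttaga
In Isg15 the nearest match begins 66 bases before the start, and in Ifit3 122 bases. A match is a description of these letters and no measure of binding.

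Cyr61, a matricellular protein gene (chromosome 3, 145646976 to 145649981), held 73.1, 53.7, 43.6, 122 and 48.7 scaled TPM untreated and 16.5, 76.6, 12.4 and 79.9 with myelin. Myelin replicates 2 and 4 lay inside the untreated range, so the groups overlapped. The log2 fold change was -1.99 ± 0.33 (SE, limma adjusted p = 0.00154), -2.38 ± 0.34 (adjusted p = 2.67e-05) without both replicates numbered 2 and -0.65 without myelin replicate 3.

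Ctgf, a matricellular relative of Cyr61, held 59.8, 58.7, 51.0, 121 and 89.2 scaled TPM untreated and 13.8, 53.5, 20.3 and 85.6 with myelin (-1.45 ± 0.36, limma adjusted p = 0.0167). Inhba, Serpinh1, Timp1, Sparc, Hspb1 and Cryab, which encode an activin subunit, a collagen chaperone, a metalloproteinase inhibitor, a matrix glycoprotein and 2 small heat shock proteins, had log2 fold changes of -1.69, -1.52, -1.51, -1.51, -1.49 and -1.44. Cryab was at 15.3 scaled TPM in myelin replicate 3 and 51.6 to 107 in the other 3 myelin libraries, and its log2 fold change was 0.22 without myelin replicate 3. Thbs1, thrombospondin 1, held 102, 64.2, 42.5, 102 and 60.8 untreated and 32.2, 50.2, 26.1 and 56.1 with myelin (-1.48 ± 0.24, limma adjusted p = 0.00154).

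Markers of astrocytes and of fibroblasts and pericytes had their lowest mean levels in myelin replicates 1 and 3, where Cyr61 and Ctgf were also lowest. Of 17 astrocyte markers 5 fell (Clu, Sparcl1, Gfap, Aqp4 and Atp1b2), against 2.77% of all genes, none rose, and all 17 were negative with a median of -0.56. The groups overlapped for each of the 5. Sparcl1, Gfap, Aqp4 and Atp1b2 had their highest Het value in a myelin library, and Clu in an untreated library. Sparcl1 reached 12.1 scaled TPM with myelin and 10.3 untreated, Aqp4 7.79 and 6.27, and Clu 9.42 and 16.9. Of 13 fibroblast and pericyte markers 2 fell, Tagln and Acta2, both smooth muscle cytoskeleton genes, against the same 2.77%, and the list median was -0.70. Tagln held 89.0, 73.3, 145, 198 and 145 scaled TPM untreated and 53.4, 102, 31.1 and 135 with myelin. The mean level of the fibroblast and pericyte list was 2.51 and 2.56 on the log2 scale in myelin replicates 1 and 3, and 2.84 to 4.0 in the other 7. The mean level of the astrocyte list was 1.79 and 1.62 in the same 2 libraries and 2.00 to 3.48 in the others. Summed, fibroblast and pericyte markers were 237 to 609 scaled TPM untreated and 140 to 422 with myelin, and astrocyte markers 301 to 518 and 291 to 366. Most of the astrocyte sum was Glul, at 237 to 422 untreated and 230 to 285 with myelin. All 18 astrocyte and all 18 fibroblast and pericyte markers in the table were above 0 in each Het library. Gfap was at 10.07 to 32.3 scaled TPM untreated and 4.32 to 42.0 with myelin. In bulk libraries fewer cells of a type and less RNA per cell cannot be told apart, and the part of these markers in the falls above was not tested.

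**Figure D4:**
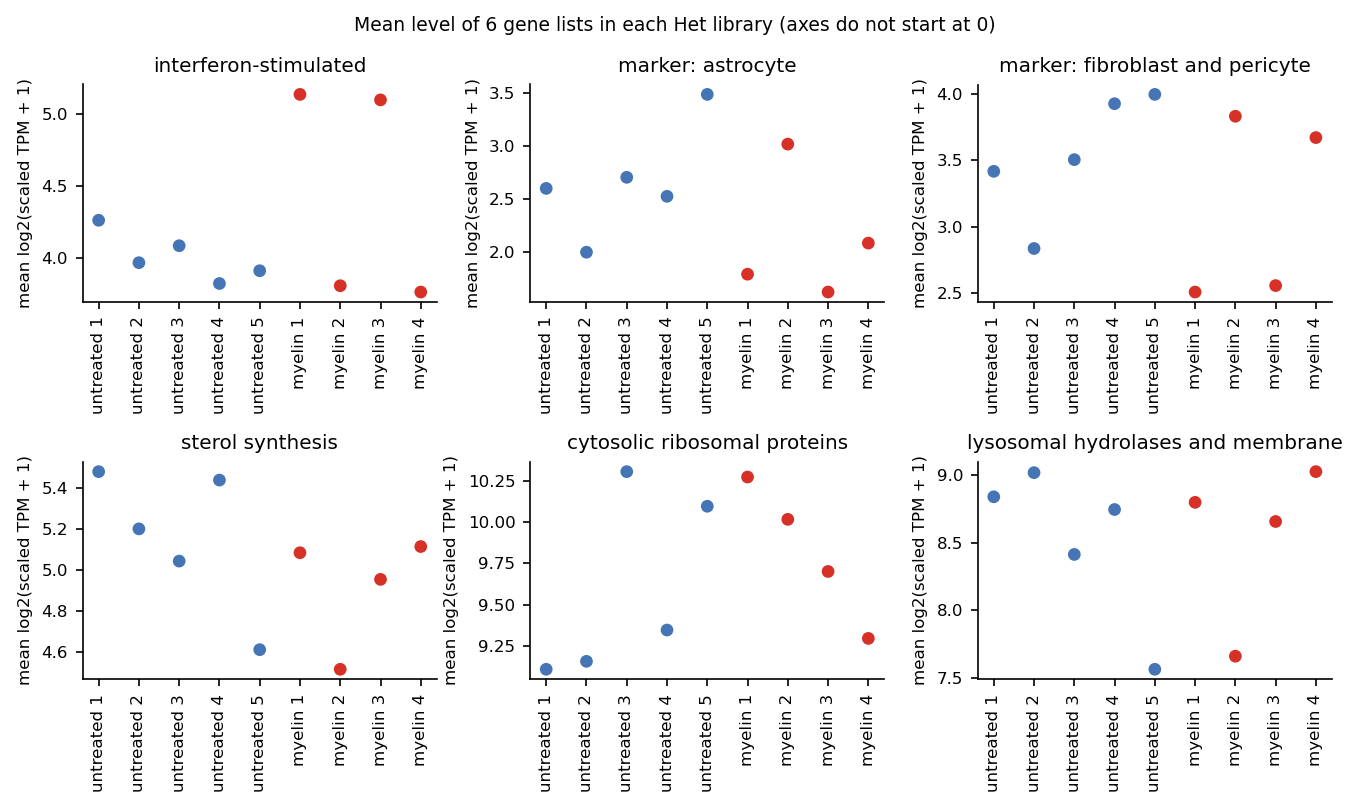
Mean log2(scaled TPM + 1) of 6 gene lists in each untreated (blue) and myelin (red) Het library; the vertical axes do not start at 0. Interferon-stimulated genes are high and fibroblast markers low in myelin replicates 1 and 3, while lysosomal genes are low in untreated replicate 5 and myelin replicate 2.

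Matrix-degrading enzymes and growth factor genes gave 4 of 16 lower, against 2.77% of all genes, and none higher, with a median of -0.42. Mmp12, the macrophage metalloelastase, held 529, 344, 259, 711 and 247 scaled TPM untreated and 544, 98.2, 175 and 300 with myelin (log2 fold change -1.32 ± 0.25, limma adjusted p = 0.00328). Here myelin replicate 1 was the highest of the 4 myelin libraries, where for Ctgf it was the lowest. Of 22 NRF2 antioxidant genes 6 fell, against 2.77% of all genes, led by Nqo1, a quinone reductase (-1.15), and Slc7a11, the cystine transporter (-0.77), with a median of -0.28. Nqo1 was at 3.21 scaled TPM in myelin replicate 3 and 9.10 to 22.9 in the other myelin libraries, and its log2 fold change was 0.02 without that library. Slc7a11 held 70.2, 35.3, 47.3, 70.8 and 38.7 untreated and 49.0, 28, 34.3 and 28.4 with myelin.

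Of 21 glycolysis and hypoxia genes 4 fell, against 2.77% of all genes: the lactate transporter gene Slc16a3 (-0.81), the oxygen sensor Egln3 (-0.56), the glucose transporter Slc2a1 (-0.51) and pyruvate kinase Pkm (-0.38). Replication and mitosis genes gave 3 of 26 lower (Cdc20, Rrm2 and Mcm5), against the same 2.77%, and 11 lower without both replicates numbered 2, against 3.97%. Microglial receptor genes Csf1r (-0.63), Itgam (-0.68) and Itgb2 (-0.61) were called lower with all 9 libraries and were not called without both replicates numbered 2. Csf1r, the receptor for Csf1, was at 215 scaled TPM in untreated replicate 5 and 191 in myelin replicate 2, and at 351 to 750 elsewhere. Mthfd2, a mitochondrial folate enzyme gene of the ATF4 list, rose (0.45), and Asns, asparagine synthetase, missed the threshold with all 9 libraries (0.42, limma adjusted p = 0.0601) and passed it without both replicates numbered 2 (0.65 ± 0.13, adjusted p = 0.000845).

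Of 32 cytosolic ribosomal protein genes 2 rose (Rpl30 and Rpl3), against 0.95% of all genes. All 32 had a positive log2 fold change, with a median of 0.44. Their mean level was 9.11 to 9.35 on the log2 scale in untreated replicates 1, 2 and 4 and myelin replicate 4, the 4 libraries of highest coding share. It was 9.70 to 10.30 in the other 5. With log2 coding share as a covariate the list median was -0.02 and 11 of 32 values were positive. Of 31 nuclear respiratory chain genes 1 rose (Uqcrq), and their median was 0.27, or 0.03 with the covariate. The part of coding share in these medians was not tested.

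**Figure D5:**
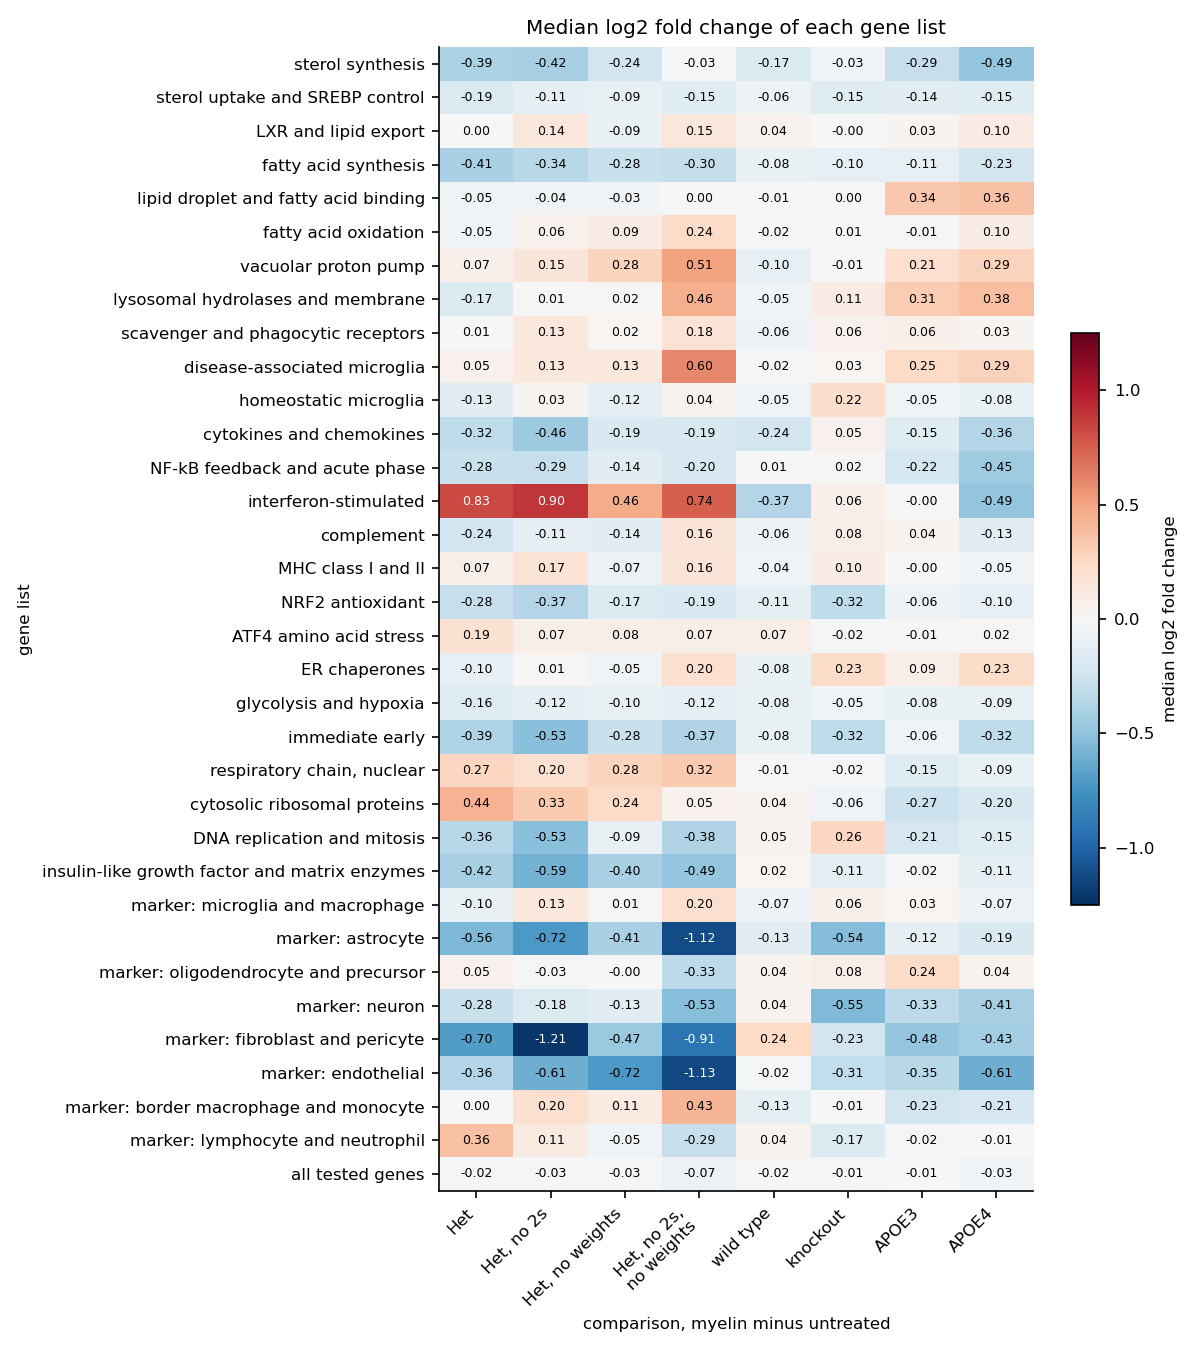
Median log2 fold change, myelin minus untreated, of 33 gene lists and of all tested genes, for Het libraries under 4 settings (all 9, without the replicates numbered 2, and both again without library weights) and for the other 4 genotypes. Interferon-stimulated genes have a median of 0.83 in Het and -0.37 in wild type, and lysosomal genes -0.17 in Het, 0.31 in APOE3 and 0.38 in APOE4.

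Among the 407 called genes (303 lower and 104 higher), 29 also separated the groups in all 9 libraries, 20 of them lower and 9 higher with myelin. Over all tested genes 0.694% were lower and 0.466% higher without overlap. Call and separation are read from the same values, so separation is no independent support. The genes named here were chosen after their values were seen. Ptgs1, the constitutive prostaglandin synthase, held 14.6, 12.4, 11.3, 16.9 and 11.3 scaled TPM untreated and 6.65, 8.98, 7.66 and 9.48 with myelin (log2 fold change -0.79 ± 0.15, limma adjusted p = 0.00376). Slc39a6, a zinc importer gene, held 18.4, 21.7, 25.4, 23.0 and 21.0 untreated and 12.8, 17.4, 10.9 and 15.0 with myelin (-0.76 ± 0.14, limma adjusted p = 0.00328). Prr5l, a gene of an mTORC2-associated protein, held 10.8, 12.6, 10.9, 6.58 and 9.45 untreated and 17.3, 17.7, 17.0 and 18.8 with myelin (0.77 ± 0.19, limma adjusted p = 0.0179). Adm, which encodes the vasodilator adrenomedullin, and Adora2b, an adenosine receptor gene, were lower by -0.91 and -0.85. Phyhd1 and Pecr, the latter a peroxisomal enoyl-CoA reductase gene, were higher by 0.64 and 0.60.

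The difference between the Het and WT responses was tested as an interaction. Limma called 671 genes (6.13%), 108 with a higher and 563 with a lower log2 fold change in Het. The lower calls were 5.14% and the higher 0.986% of all genes; the WT and KO responses alone had 9.82% and 5.31% of genes called. Limma called 889 (8.12%) without both replicates numbered 2, and 0 without untreated replicate 1, without myelin replicate 3 or with the 4 low libraries left out. Cnnm2, a magnesium transport gene, held 14.3, 8.69, 16.6, 11.6 and 12.7 scaled TPM in untreated and 4.26, 5.41, 6.34 and 6.56 in myelin Het libraries, with no overlap. It fell in Het (-0.87) and rose in WT (0.86), and the responses differed by -1.73 (limma adjusted p = 0.000325). Zswim4, also without overlap in Het, differed by -1.49. Hspb1 and Uck2 differed by -3.01 and -2.44, and each was lowest in myelin replicates 1 and 3 among the Het libraries. Fgfr1, a growth factor receptor gene, differed by -1.86, and was as low in untreated replicate 2 (2.68 scaled TPM) as in myelin replicates 1 and 3 (2.76 and 2.18). Summed fibroblast and pericyte markers held 3123 to 5099 scaled TPM in WT libraries against 140 to 609 in Het, and their part in this difference was not tested.

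The Het and KO responses differed in 89 genes (0.813%), 32 higher (0.292%) and 57 lower (0.521%) in Het, and in 148 (1.35%) without both replicates numbered 2. The count was 1 without weights and 0 with coding share as a covariate. Mcm5, a replication helicase subunit gene, held 10.2, 8.77, 5.90, 12.9 and 12.2 scaled TPM untreated and 8.09, 7.67, 5.0 and 9.48 with myelin in Het (-0.73), against 0.49 in KO, a difference of -1.21 (limma adjusted p = 0.00706). Ncaph, a condensin subunit gene, and Pbk, a mitotic kinase gene, differed by -1.33 and -1.35. Aff1, a transcription elongation gene, and Pitpnc1, a phosphatidylinositol transfer gene, differed by -0.91 and -0.95. Msrb1, a selenoprotein methionine sulfoxide reductase gene, rose in Het (0.64) and stood at -0.52 in KO, a difference of 1.16.

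Genes called in the same direction in both the E3 and the E4 response, found with the Het libraries left out of the fit, were then read in Het. Of the 411 that fell in E3 and E4, 66 (16.1%) fell and 0 rose in Het, against 2.77% of all genes lower. Of the 607 that rose in E3 and E4, 10 (1.65%) rose and 6 (0.988%) fell in Het, against 0.95% higher and 2.77% lower. As a set the 607 did not shift upward: 287 log2 fold changes were positive and 320 negative, with a median of -0.01. Without both replicates numbered 2, 104 of the 411 (25.3%) fell, against 3.97% of all genes, and 24 of the 607 (3.95%) rose, against 0.813%. In that fit 361 of the 607 were positive and 246 negative, with a median of 0.05. As a level, the mean log2 of the risen genes minus that of the fallen genes was 0.69, 1.29, 0.23, 0.61 and 0.12 in untreated Het replicates 1 to 5. It was 0.78, 0.54, 1.04 and 1.08 in myelin Het replicates 1 to 4. Untreated replicate 2 was the highest of the 9 and myelin replicate 2 lay below untreated replicates 1 and 4. The other 7 libraries did not overlap. Within the untreated and within the myelin Het libraries, this value ranked in the order of coding share. Mean coding share was 12.1% untreated and 18.6% with myelin in E4, and 13.6% and 15.6% in E3. The part of coding share in this value was not tested.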

How the data were processed

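The authors deposited 1 table of gene-level TPM (length-scaled transcript abundances, 1e+06 in all per library) for 47 libraries. The submitters' processing notes name Salmon 0.13.1, limma 3.40.6 and mm10, with no role given. TPM keeps no read depth, so depth is unknown. Each library was rescaled to its nuclear protein-coding total and by a trimmed mean (30% of ratios, 5% of levels), giving scaled TPM. Coding and lincRNA genes at 5 or more in at least 4 libraries were tested (10948 of 53697) on log2(scaled TPM + 1), so fold changes of low genes are understated. limma 3.58.1 in R 4.3.3 fitted 10 group means over 47 libraries with library weights and an intensity trend; p-values were adjusted by Benjamini-Hochberg over all tested genes. The script was tested on simulated data. Genes were named by rule: the 12 largest rises and falls that kept their sign in the unweighted fit without libraries under 6% coding share, up to 4 called per list, a fixed gene list, and the 6 smallest adjusted p in each interaction; others were chosen after their values were seen, and some that the rule names are not reported here. Members and gene lists were chosen with earlier results of these data known. Replicate numbers are not stated to pair libraries. Alternatives changed scaling, weights, filter, pseudocount, libraries, covariate and replicate block. Positions are from GENCODE vM21 where the gene version matched (10514 genes), and promoter sequences from RefSeq GRCm38.p6.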

Additional observations from a re-analysis of the deposited data

Results flagged for a closer look

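In 92 groups of 4 or 5 Het libraries checked for a value far from the others, 7 had one, and chance alone flags about 1 in 20 groups. Abcg1 stood at 23.5 scaled TPM in untreated replicate 2, next to 6.94 in the nearest untreated library. Il18bp stood at 15.8 in the same library, next to 5.43. Fdps, farnesyl diphosphate synthase of the sterol pathway, was 302 in myelin replicate 1, with 180 next. Msrb1 was 364 in the same library, with 218 next. Insig1 was 43.2 in myelin replicate 4, with 31.2 next. Trem2 was 2572 in untreated replicate 3, with 1464 next. Ncaph was 18.6 in untreated replicate 5, with 9.07 next.

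The Het and WT responses differed by the interaction test for 9 named genes, on the log2 scale. The differences were -3.01 for Hspb1, -2.44 for Uck2, -1.86 for Fgfr1, -1.73 for Cnnm2 and -1.49 for Zswim4. They were -0.92 for Ncaph, -0.84 for Mcm5, -0.67 for Pitpnc1 and -0.63 for Aff1. The Het and KO responses differed by -1.35 for Pbk, -1.33 for Ncaph, -1.21 for Mcm5, -0.95 for Pitpnc1, -0.91 for Aff1 and 1.16 for Msrb1.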

How the results depend on the processing

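The number of genes called in the Het response (407) was 1567 with coding total scaling, 1 and 9 (weighted and unweighted) with low coding share left out, 4 with coding share as a covariate, 742 with a pseudocount of 5, 114 with no filter, 1006 with the filter on Het libraries and 654 with a stricter filter. With Het libraries alone it was 0 weighted (1317 at unadjusted p under 0.05) and 0 unweighted (236). Leaving out 1 library gave 0 to 1978: 0 without untreated 1 or myelin 3, 80 without myelin 2, 247 without myelin 4, 832, 843 and 1765 without untreated 2, 3 and 4, and 1978 without myelin 1. Settings chosen after seeing the data, all without both replicates numbered 2, gave 2152 unweighted, 83 with Het libraries alone, 12 with low coding share left out and 886 unweighted without untreated 5.

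The count for Het minus WT (671) was 1292 with coding total scaling, 293 without weights, 0 and 0 with low coding share left out (1118 and 1248 at unadjusted p under 0.05), 52 with no filter, and 0 to 1492 leaving out 1 library: 0 without untreated 1 or myelin 3, 1216 and 1206 without untreated 2 and 4, 1492 without myelin 1. Without both replicates numbered 2 it was 1597 unweighted and 4 with low coding share left out. The count for Het minus KO (89) was 1127 with coding total scaling, 1 without weights, 0 and 0 with low coding share left out (704 and 926), 148 without both replicates numbered 2, 0 with the covariate (581), 50 and 392 with pseudocounts of 0.5 and 5, 753 with the filter on Het libraries and 367 with a stricter one. Leaving out 1 library gave 0 to 1319: 0 without untreated 1 or myelin 3, 3 without myelin 2, 324, 522, 1018 and 222 without untreated 2, 3, 4 and 5, and 1319 without myelin 1. Without both replicates numbered 2 it was 13 unweighted, 1 with low coding share left out and 7 unweighted without untreated 5. The Abcg1 log2 difference was 1.06 to 1.69 leaving out 1 library. It was 1.64 without untreated 2 and 2.07 without both replicates numbered 2. Each had an exact permutation p of 0.0286, the smallest possible there, against 0.0714 with all 9 libraries. The libraries left out were already known to cross for Abcg1, so these p-values are no independent support.

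Log2 fold changes that reversed without both replicates numbered 2, unweighted, were Tmem151a -0.10, Sc5d 0.32, Msmo1 0.21, Cyp51 0.052, Dgat2 -0.89 (-0.16 also without untreated 5), Stab1 -0.29, Cat 0.15, Lpl 0.57, Ctsb 0.93, Gpnmb 0.61 and Mrc1 0.45. Without weights, and with Het libraries alone unweighted, Dgat2 was -0.40 and Cat 0.019. Leaving out 1 library, Cryab ran from -2.08 to 0.22, Nqo1 from -1.44 to 0.017 and Rrm2 from -1.18 to 0.091, each highest without myelin 3. The cause was not tested.

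With the replicate block the counts were 279 (Het), 542 (Het minus WT) and 7 (Het minus KO), and 2 with Het libraries alone and the block. Same-numbered deviations correlated at -0.05, -0.53, 0.00 and 0.41, and differently numbered ones at -0.48 to 0.51. With so wide a spread these values cannot settle whether the numbers pair the libraries. With the block Nkain4 was -0.013, Isg15 -0.0040, Smpd1 0.015, Stab1 -0.050, Cat 0.021 and Sel1l 0.082; with Het libraries alone and the block Stab1 was -0.014 and Sel1l 0.037.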
